A study of Mus musculus with 6 samples.

Results

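The genes described here are those that hold a cell at, or release it from, the first gap phase of the cell cycle: the D-type cyclins Ccnd1, Ccnd2 and Ccnd3, their kinase Cdk6, the inhibitors Cdkn1a, Cdkn1b, Cdkn2a, Cdkn2b and Cdkn2c, and the retinoblastoma gene Rb1. They were taken by symbol from the gene lists of the sciatic nerve libraries, where these 10 genes of 41605 each appeared once in all 6 libraries. Their levels were followed across the cell types of mouse sciatic nerve on postnatal days 1 (P1) and 60 (P60), and at P1 between cycling cells and the rest. The comparison of the ages asks how the cell cycle genes of each nerve cell type differ between a growing and a mature nerve.

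A D-type cyclin binds Cdk4 or Cdk6, and the active kinase phosphorylates the retinoblastoma protein, which then releases E2F transcription factors so that genes of DNA replication can be expressed. Growth factor signals raise the D-type cyclins. Inhibitors of the Ink4 family (p16Ink4a from Cdkn2a, p15 from Cdkn2b, p18 from Cdkn2c) bind the D-type kinases themselves, and those of the Cip/Kip family (p21 from Cdkn1a, p27 from Cdkn1b) bind cyclin-kinase complexes. In nerve, Schwann cells (SCs), the myelinating and axon-ensheathing glia, proliferate around birth and stop dividing before they make myelin. Fibroblasts of the endoneurium lie among the axons, those of the epineurium form the outer sheath, and perineurial cells form the barrier around each fascicle.

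All mice carried a Cre transgene active in the Schwann cell lineage, the Cre-dependent eYFP reporter of the Rosa locus (which marks SCs) and βAct-DsRed (which marks all cells), on C57bl/6J, with both sexes pooled in each suspension. The groups, P1 and P60, differed in age and in the sort gate, with 3 libraries each of DsRed-positive cells run on the 10x 3′ platform, which counts captured RNA molecules by unique molecular identifiers (UMIs). At P1 the sort discarded part of the eYFP-positive SCs, so the number of P1 SCs was set by the gate. Nothing in the labels gives a batch or date, and age and batch cannot be told apart.

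The libraries held 3435 to 4586 cells after the filter and 20092957 to 29371559 UMIs. Median depth per cell was 6077 to 6840 UMIs at P1 and 3627 to 5561 UMIs at P60. P60 replicate 3 stood apart: its correlation of log2 expression with the other P60 libraries was 0.971 to 0.974, against 0.995 between those, and 16.2% of its cells had over 10% mitochondrial counts, against 2.97% and 4.84%. Libraries shared 14 to 33 cell barcodes per pair. Cells were clustered at each age and named from marker lists, and counts were then summed per library and class and expressed as CPM (counts scaled to the same total in every sum). All 8 of 8 markers of each class were at least 2-fold higher in it than in the other cells at both ages, and none was at 0. A sum mixes all cells of a class, so a change in the mix of cells and a change within each cell cannot be told apart. The SC class held 3552 cells at P1 and 440 at P60. Fibroblast transcripts were present in it, and the median fibroblast marker reached 18.1% of its fibroblast level in P1 SCs and 32.6% in P60 SCs. Immune markers summed to 22.8 to 37.7 CPM in the P1 and 135 to 1230 CPM in the P60 SC sums, and their part in the age differences of SCs was not tested.

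Ccnd1 (chr7:144929931-144939925 in GRCm38, minus strand) had its highest P1 level in endoneurial fibroblasts, with 521, 546 and 539 CPM in replicates 1, 2 and 3. SCs followed with 409, 443 and 409 CPM, and perineurial cells with 347, 327 and 348 CPM. These groups did not overlap, and mural cells (pericytes and vascular smooth muscle) were lowest with 108 ± 5.57 CPM (SD, n = 3 libraries, as for all values with an SD here). At P60 the order had changed: endothelial cells, with 188, 198 and 124 CPM, and SCs, with 134, 133 and 126 CPM, were highest and overlapped, while endoneurial cells had 90.3 ± 3.75 CPM. Ranks cover the 7 named cell groups, and fibroblast clusters without a subtype and unnamed or mixed clusters were not ranked. Apart from the shares of UMIs given further on, levels were set side by side between cell types and not between genes. No test was made between cell types because the cells were clustered on variable genes of the same counts, which may include members.

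Ccnd2 (chr6:127125162-127152193, minus strand) was high in endoneurial fibroblasts (687 ± 29.8 CPM), mural cells (586 ± 41.5 CPM) and perineurial cells (561 ± 15.1 CPM) at P1 and lowest in immune cells (68.1 ± 11.2 CPM). At P60 mural cells (506, 562 and 513 CPM) and endothelial cells (479, 484 and 398 CPM) were highest without overlap, and SCs were lowest (85.9 ± 23.3 CPM). Ccnd3 (chr17:47505051-47599691, plus strand) was highest in epineurial fibroblasts at P1, with 386, 417 and 408 CPM, and in perineurial cells at P60, with 255, 237 and 180 CPM. In each of the 8 cell groups the lowest P60 value of Ccnd3 was that of replicate 3.

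Cdk6 (chr5:3341485-3531008, plus strand), the kinase partner of these cyclins, was highest in P1 endoneurial fibroblasts, with 151, 171 and 159 CPM, 1.68-fold above mural cells, and lowest in epineurial fibroblasts (10.4 ± 1.57 CPM). At P60 mural cells were highest, with 74.6, 79.4 and 89.1 CPM, 1.86-fold above immune cells, and epineurial fibroblasts again lowest (2.9 ± 0.538 CPM). Rb1 (chr14:73183673-73325822, minus strand), the substrate of the kinase and brake on E2F, was sparse. It lay between 1.98 ± 0.646 CPM in endoneurial fibroblasts and 20.2 ± 2.16 CPM in SCs at P1, and the leading groups overlapped at both ages (SCs and endothelial cells at P1, immune and mural cells at P60). Rb1 shares its strand with Gm17233 and Mir687, and Ccnd1, Ccnd2, Ccnd3, Cdkn1a, Cdk6 and Rb1 have overlapping genes on the other strand, so reads of those genes may be among their counts.

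**Figure D1:**
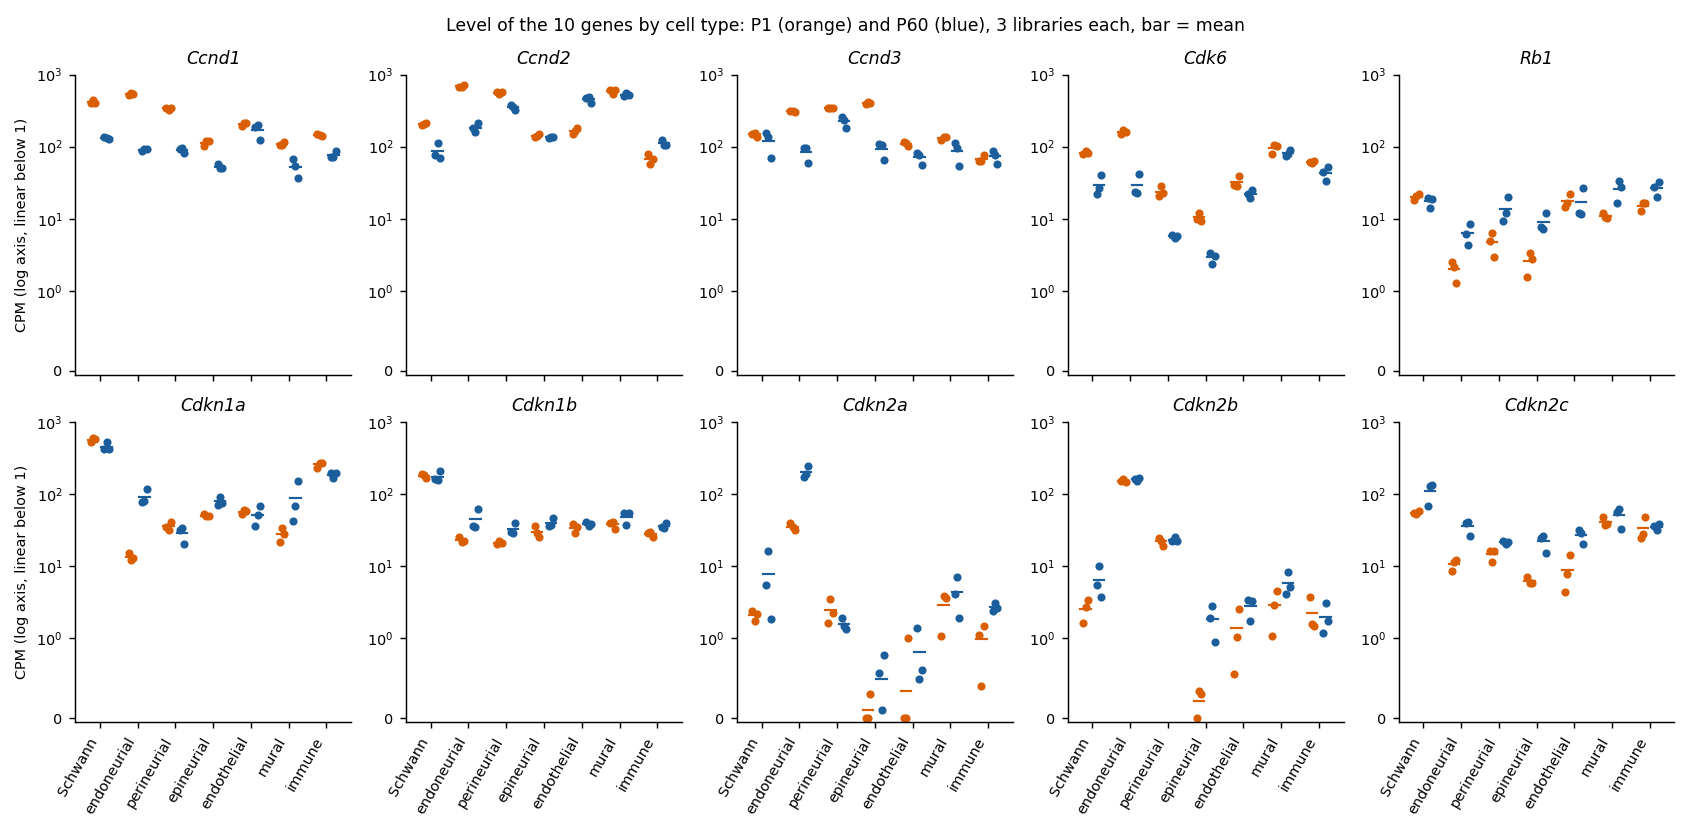
Level of each of the 10 genes (CPM, log axis that is linear below 1) in 7 cell groups, with 1 point per library (P1 orange, P60 blue) and a bar at the mean. Cdkn1a and Cdkn1b peak in Schwann cells at both ages, Cdkn2a and Cdkn2b in endoneurial fibroblasts, and Ccnd1 and Cdk6 lie lower at P60 than at P1 in Schwann, endoneurial, perineurial and epineurial cells.

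As class sums, the Cip/Kip inhibitors were highest in SCs at both ages. Cdkn1a (chr17:29090976-29100727, plus strand) stood at 521, 593 and 588 CPM in the P1 libraries and 419, 527 and 421 CPM in the P60 libraries. Immune cells came next at both ages (227, 272 and 273 CPM, then 194, 167 and 197 CPM), 2.21-fold below SCs at P1 and 2.45-fold at P60, without overlap. This did not hold for all P1 SCs. The P1 clusters with markers of SCs that do not myelinate, described further on, had 143 to 200 CPM, below immune cells. The lowest P1 group was endoneurial fibroblasts, with 13.4 ± 1.48 CPM. The P1 endoneurial sums held SC marker transcripts at a median of 1.4% of their SC level, which for Cdkn1a corresponds to 7.94 CPM. After thinning every cell to 1500 UMIs, 40.4 ± 1.52% of P1 SCs and 36.3 ± 3.29% of P60 SCs had a Cdkn1a UMI, against 1.63 ± 0.297% and 8.66 ± 0.944% of endoneurial cells. Unthinned, at median depths of 5747 and 2371 UMIs, the SC shares were 65 ± 1.42% and 45.7 ± 5.33%.

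Cdkn1b (chr6:134920401-134925513, plus strand) had 191, 183 and 168 CPM in P1 SCs and 162, 155 and 206 CPM in P60 SCs. Every other group lay far below at either age, and the next were mural cells with 37.9 ± 4.2 CPM at P1 and 48.4 ± 10.1 CPM at P60, 4.78-fold and 3.6-fold below SCs. In SCs the ages overlapped, and edgeR's quasi-likelihood test of P60 against P1, the test used for all members, did not call the gene (log2 fold change −0.09 ± 0.14 SE, adjusted p = 0.64), except without P60 replicate 3 (−0.30, adjusted p = 0.041).

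The genes most like a member over the 30 sums of 5 cell classes in 6 libraries (Pearson's r of log2(CPM + 1), among 3125 genes with a mean of at least 50 CPM) were given as a description, since sums of 1 library share their suspension. For Cdkn1b these were Secisbp2l (r = 0.973), the potassium channel gene Kcna1 (0.937) and the aspartoacylase gene Aspa (0.915). For Cdkn1a they were the creatine synthesis gene Gatm (0.903), the polyamine acetyltransferase gene Sat1 (0.903) and Wwp1 (0.898). For Ccnd1 they were Mrpl17 (0.884), the stress response factor Atf4 (0.883) and Sys1 (0.869), and for Ccnd2 Gm13889 (0.865), the gap junction gene Gjc1 (0.829) and the syndecan gene Sdc1 (0.829).

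Cdkn2a and Cdkn2b lie next to each other on chromosome 4 (chr4:89274471-89294653 and chr4:89306299-89311039, both on the minus strand). Among the named groups, both had their highest level in endoneurial fibroblasts at both ages. Cdkn2a has alternative first exons, of which the distal one starts the transcript of Arf, a stabiliser of p53, and the proximal one that of the Ink4a inhibitor. Its 2 protein-coding transcripts share 578 bases at the 3′ side, so 3′ counts do not tell the products apart. The RefSeq sequences (GRCm38.p6) before the annotated starts of this locus are shown because both of its members were highest in the same cell group. They are given 5′ to 3′ on the minus strand, with the GC box GGGCGG in capitals. The windows are chr4:89294654-89294869 (Cdkn2a, distal start), chr4:89282193-89282442 (Cdkn2a, proximal start) and chr4:89311040-89311282 (Cdkn2b).
Cdkn2a distal start: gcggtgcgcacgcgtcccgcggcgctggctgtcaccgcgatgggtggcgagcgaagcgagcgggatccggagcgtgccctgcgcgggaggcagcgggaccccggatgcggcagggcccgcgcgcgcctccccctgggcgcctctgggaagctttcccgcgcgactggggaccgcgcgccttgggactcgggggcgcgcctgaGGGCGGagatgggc
Cdkn2a proximal start: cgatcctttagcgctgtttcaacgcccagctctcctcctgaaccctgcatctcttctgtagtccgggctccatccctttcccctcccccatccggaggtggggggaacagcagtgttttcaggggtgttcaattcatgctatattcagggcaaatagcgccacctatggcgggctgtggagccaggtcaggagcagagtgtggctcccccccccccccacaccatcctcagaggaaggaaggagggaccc
Cdkn2b start: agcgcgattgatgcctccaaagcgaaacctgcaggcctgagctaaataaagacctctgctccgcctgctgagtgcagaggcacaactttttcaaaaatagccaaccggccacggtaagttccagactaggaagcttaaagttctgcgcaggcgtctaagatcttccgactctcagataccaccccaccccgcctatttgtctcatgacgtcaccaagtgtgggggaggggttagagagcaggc
The GC box, searched on both strands, was found in the distal Cdkn2a window and in neither of the others, and 32.7% of all 32851 windows of up to 250 bases held it. Among 11 windows of the 7 members with a sequence, 6 held a GC box (those of Ccnd3, Cdkn1a, Cdkn1b, Cdkn2a and Cdkn2c), and none held the E2F motifs TTTCGCGC or TTTGGCGC, which occurred in 0.256% and 0.417% of all windows. Other forms of the E2F motif were not searched for. One of them, TTTCCCGC, is present in the distal Cdkn2a window shown above, so the windows cannot be said to lack E2F motifs.

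Cdkn2a had 39.2, 34.9 and 31.9 CPM in the endoneurial fibroblasts of the P1 libraries and 171, 192 and 243 CPM in those of P60. Of the other named groups the highest had 2.87 ± 1.55 CPM at P1 (mural cells) and 7.89 ± 7.54 CPM at P60 (SCs). The P1 fibroblast cluster of 595 cells without a subtype, of which 68.7% were cycling, had 18.8 ± 1.44 CPM of Cdkn2a and 68.5 ± 2.3 CPM of Cdkn2b, and the unnamed P1 cluster high in mitochondrial counts had 7.88 ± 2.06 and 22.5 ± 4.9 CPM. Epineurial fibroblasts had 0, 0 and 0.309 CPM at P1, where 3 counts would be 1.17, 1.02 and 0.927 CPM, and 0.562, 0.11 and 0.792 CPM at P60. Cdkn2b had 153, 160 and 149 CPM in endoneurial cells at P1 and 162, 153 and 165 CPM at P60, followed among the named groups by perineurial cells at both ages, with 22.1 ± 2.87 and 23.3 ± 2.1 CPM. In SCs both genes were low. The P60 sums had 7.9 CPM of Cdkn2a and 6.46 CPM of Cdkn2b, where the share of fibroblast markers corresponds to 4.78 and 6.89 CPM, and the P1 sums had 2.09 and 2.63 CPM, where it corresponds to 2.53 and 11.1 CPM.

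After thinning to 1500 UMIs, 5.82%, 5.22% and 4.58% of P1 endoneurial cells and 18.6%, 20.9% and 26.1% of P60 endoneurial cells had a Cdkn2a UMI, whereas 20 ± 0.731% and 20 ± 0.858% had a Cdkn2b UMI. Without thinning the shares were 25.9% and 35.4% for Cdkn2a and 68.6% and 36.8% for Cdkn2b, at median depths of 9427.5 and 3251.5 UMIs. In epineurial fibroblasts, taken as background, the thinned shares were 0.00809% and 0.0612% for Cdkn2a and 0.0271% and 0.233% for Cdkn2b, at median depths of 6260 and 5231.5 UMIs.

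Cdkn2c (chr4:109660876-109667189, minus strand) was highest in SCs at both ages. The P1 SC libraries had 54, 52.3 and 59.1 CPM and the P60 libraries 68.5, 131 and 134 CPM, with mural cells next (41.6 ± 6.19 and 50.7 ± 16.1 CPM). The P60 values of SCs all lay above those of P1, and the first replicate was the lowest of them. At P1 the level came mostly from dividing cells, as described further on.

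The age difference was tested in each class with edgeR's quasi-likelihood test across all genes, with p adjusted by Benjamini-Hochberg and called under 0.05; 3 suspensions per age stand behind it, and p-values measure the spread between these suspensions. In SCs, 9 members passed the count filter, of which 1 rose and 4 fell from P1 to P60, whereas 43.7% of all genes tested changed (23.4% rose and 20.3% fell). Ccnd1 fell (log2 fold change −1.73 ± 0.14 SE, adjusted p = 6.7e-08), as did its partner Cdk6, from 77.8, 85.9 and 82.9 CPM to 21.9, 26.6 and 40.8 CPM (−1.47 ± 0.20, adjusted p = 2.9e-05). Ccnd2 fell from 199, 208 and 212 CPM to 76.7, 112 and 68.7 CPM (−1.31 ± 0.17, adjusted p = 1.1e-05). In both ages' SCs with under 10 UMIs of the fibroblast gene Dcn, Ccnd2 was at 192, 196 and 207 CPM at P1 and 27.7, 35.6 and 38.5 CPM at P60, and the difference was −2.57 (adjusted p = 1.9e-08). Cdkn2c rose (1.00 ± 0.18, adjusted p = 0.00033).

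Cdkn1a in SCs was called lower at P60 (−0.36 ± 0.14, adjusted p = 0.048), but the ages overlapped. The call was lost in 7 of 14 alternatives, among them the fits without P1 replicate 1, 2 or 3 (adjusted p = 0.053, 0.13 and 0.12) or P60 replicate 1 (adjusted p = 0.062), and the sign turned in 1 more. Among SCs with under 10 Dcn UMIs its level was 533, 600 and 599 CPM at P1 and 590, 809 and 490 CPM at P60, with a difference of 0.054 (adjusted p = 0.84). Ccnd3 (−0.38 ± 0.21, adjusted p = 0.17), Cdkn2b (1.25 ± 0.63, adjusted p = 0.12) and Rb1 (−0.28 ± 0.29, adjusted p = 0.47) were not called, and Cdkn2a did not pass the filter. Without the highest doublet scores Cdkn2b was called (2.03, adjusted p = 0.03). Ccnd3 was called lower when no count filter was used (−0.55, adjusted p = 0.003) and without P60 replicate 1 (−0.68, adjusted p = 0.03).

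In fibroblasts as a whole, 3 of 10 members rose and 6 fell, whereas 59.6% of all genes changed (31% rose and 28.7% fell). All 3 D-type cyclins and Cdk6 fell, and the fall of Cdk6 was the greatest among the members, from 64.4, 71.1 and 67.5 CPM to 5.75, 4.7 and 7.21 CPM (−3.53 ± 0.15, adjusted p = 9.7e-08). Ccnd1 went from 319, 311 and 331 CPM to 70.9, 71.5 and 65.4 CPM (−2.20 ± 0.10, adjusted p = 1.6e-07). Ccnd2 fell less (−0.88 ± 0.10, adjusted p = 4.4e-05), and Ccnd3 by 1.26 ± 0.16 on the log2 scale (adjusted p = 9.1e-05). Cdkn1a rose (1.00 ± 0.11, adjusted p = 4.8e-05), as did Rb1 (1.72 ± 0.24, adjusted p = 0.00021) and Cdkn1b (0.50 ± 0.14, adjusted p = 0.011). Cdkn2b fell (−1.52 ± 0.10, adjusted p = 1.1e-06), and so did Cdkn2c (−0.38 ± 0.15, adjusted p = 0.048). The P1 sums of Cdkn2c held 305, 250 and 259 UMIs from cycling cells and 124, 129 and 170 UMIs from the others, whereas 19 of 7821 P60 fibroblasts were cycling. P1 fibroblasts that were not cycling had 11.6 ± 0.93 CPM of Cdkn2c, below the 22.8 ± 3.64 CPM of all P60 fibroblasts, and this difference was not tested. The subtypes make up different parts of this class at the ages, with 1304 endoneurial and 1351 epineurial cells of 5108 at P1 and 862 and 4533 of 7821 at P60. The call of Cdkn2c was lost without P1 replicate 1, 2 or 3 or P60 replicate 2 (adjusted p = 0.17, 0.083, 0.078 and 0.056), and that of Cdkn1b without P1 replicate 2 or 3 (adjusted p = 0.056 and 0.065). In SCs and in fibroblasts alike, the ages of Cdk6 did not overlap.

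Endoneurial fibroblasts changed in 9 of 10 members, with 5 rises and 4 falls, whereas 46.4% of all genes changed (23.8% rose and 22.7% fell). Here every cyclin fell: Ccnd1 to 86, 92.9 and 92.1 CPM (−2.49 ± 0.12, adjusted p = 4.8e-10), Ccnd2 to 179, 160 and 213 CPM (−1.82 ± 0.12, adjusted p = 1.4e-08) and Ccnd3 to 96.4, 95 and 59.6 CPM (−1.80 ± 0.16, adjusted p = 4.1e-07). Cdk6 fell by 2.38 ± 0.18 on the log2 scale (adjusted p = 4.8e-08). The inhibitors moved the other way. Cdkn1a rose from 15, 12.1 and 13 CPM to 77.3, 81.2 and 118 CPM (2.85 ± 0.18, adjusted p = 5.9e-09). Cdkn2a rose by 2.59 ± 0.14 (adjusted p = 1.8e-09), Cdkn2c by 1.81 ± 0.23 (adjusted p = 1.2e-05), Rb1 by 1.75 ± 0.45 (adjusted p = 0.0051) and Cdkn1b by 1.00 ± 0.20 (adjusted p = 0.00085). Cdkn2b did not pass the test (0.13 ± 0.11, adjusted p = 0.35). Of the P1 endoneurial cells, 10 of 1304 were cycling. Of the 452 cycling P1 fibroblasts, 409 lay in a cluster without a subtype, which was left out here. Cdkn2c is high in cycling cells, and the part of this in its rise was not tested.

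Cdkn2b was among the 10 leading genes of the P1 endoneurial cluster and Cdkn2a among those of the P60 cluster, so their levels may have helped to draw these clusters. The cells were therefore also taken, by a choice made after the values were seen, as all fibroblasts with at least 1 UMI of Sox9, a transcription factor among the endoneurial markers. In these cells Ccnd1 (−2.13, adjusted p = 6.6e-09), Ccnd2 (−1.24, adjusted p = 4.1e-07), Ccnd3 (−0.68, adjusted p = 0.001) and Cdk6 (−2.82, adjusted p = 1.1e-07) fell, and Cdkn1a (1.22, adjusted p = 0.0011), Cdkn2a (1.34, adjusted p = 3.2e-05) and Rb1 (1.79, adjusted p = 0.00022) rose. Cdkn2a was at 29.1, 24.8 and 25 CPM at P1 and 64.3, 49.8 and 87.4 CPM at P60. Cdkn2b turned direction and fell (−0.76, adjusted p = 0.00026), as did Cdkn2c (−0.46, adjusted p = 0.038), and Cdkn1b was not called (0.34, adjusted p = 0.14).

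The 2 neighbouring genes were also set against each other. Of the UMIs of Cdkn2a and Cdkn2b together, Cdkn2a took 19.9%, 17.8% and 18.1% in P1 fibroblasts and 40.7%, 34.8% and 47.9% in P60 fibroblasts. The ages did not overlap, and the two-sided exact permutation test gave p = 0.1, the smallest that 3 against 3 libraries allow. The share went from 18.6 ± 1.53% to 55.6 ± 4.03% in endoneurial cells and from 19.1 ± 1.6% to 49.7 ± 6.83% in fibroblasts with a Sox9 UMI.

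Epineurial fibroblasts had 3 rises and 3 falls among 8 members tested, whereas 43.4% of all genes changed (22.5% rose and 20.9% fell). The class was 1 cluster led by Ly6a, Dpt and Pi16 at P1, but at P60 it joined a cluster with Pi16 (1976 cells) and one led by Cxcl14, Mfap4 and Sfrp4 (2557 cells). A P1 cluster with Sfrp4 and Mfap4 (974 cells) had no subtype and was left out. The P1 cluster that held most cycling fibroblasts was also left out, and 13 of 1351 P1 epineurial cells were cycling. Ccnd3 fell from 386, 417 and 408 CPM to 109, 106 and 65.2 CPM (−2.15 ± 0.18, adjusted p = 1.7e-06). Cdk6 (−1.88 ± 0.25, adjusted p = 7.8e-05) and Ccnd1 (−1.15 ± 0.12, adjusted p = 1.4e-05) also fell. Ccnd2 had 135, 140 and 148 CPM at P1 and 132, 136 and 138 CPM at P60 and was not called (−0.10, adjusted p = 0.47). Cdkn2c rose from 7.03, 5.76 and 5.87 CPM to 24.6, 26.5 and 15 CPM (1.80 ± 0.26, adjusted p = 0.00016), Rb1 rose by 1.71 ± 0.33 (adjusted p = 0.0014) and Cdkn1a by 0.62 ± 0.13 (adjusted p = 0.0026). Schwann markers summed to 672 to 779 CPM in the P1 and 100 to 107 CPM in the P60 epineurial sums. At their share, SC RNA corresponds to 18.4 of the 50.2 CPM of Cdkn1a at P1 and 2.46 of the 79.8 CPM at P60, and its part in the rise was not tested. Cdkn1b was not called (0.37 ± 0.16, adjusted p = 0.086), except without P1 replicate 1 (0.53, adjusted p = 0.046), without P60 replicate 3 (0.28, adjusted p = 0.041) or with no filter on low counts (0.41, adjusted p = 0.042). Perineurial cells were described by level only: Ccnd1 went from 341 ± 11.4 to 89.2 ± 7.16 CPM and Cdk6 from 23.8 ± 3.93 to 5.68 ± 0.275 CPM, without overlap.

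**Figure D2:**
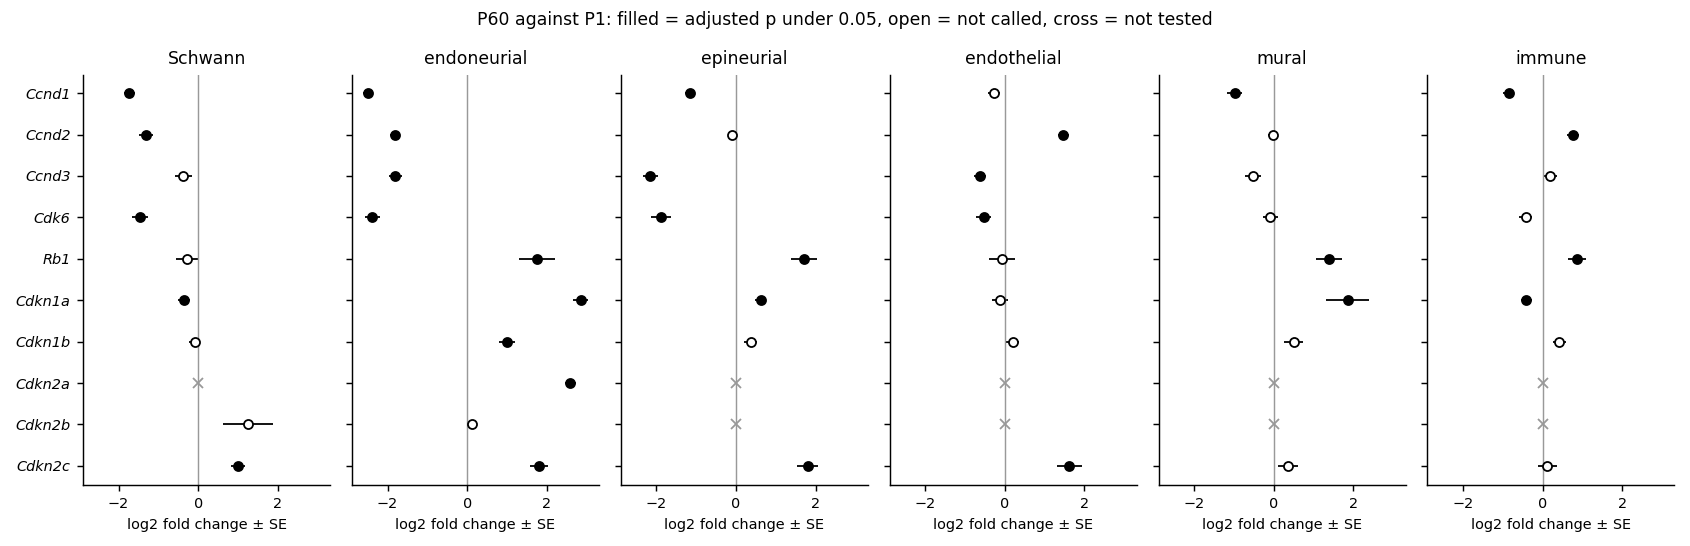
Log2 fold change of each gene from P1 to P60 with its SE in 6 cell groups (filled, adjusted p under 0.05; open, not called; cross, not tested). Ccnd1 and Cdk6 lie left of 0 in all 6 panels (open for Ccnd1 in endothelial and for Cdk6 in mural and immune cells), and Ccnd2 lies left of it in Schwann and endoneurial cells and right of it in endothelial and immune cells.

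Endothelial cells, which line the vessels, changed in 4 of 8 members tested (2 rose and 2 fell), whereas 40.1% of all genes changed (21% rose and 19.1% fell). Ccnd2 rose from 148, 166 and 183 CPM to 479, 484 and 398 CPM (1.47 ± 0.13, adjusted p = 5.2e-07), opposite to its fall in SCs and endoneurial fibroblasts. Cdkn2c rose from 4.42, 7.71 and 14.2 CPM to 31.8, 29 and 20.3 CPM (1.62 ± 0.31, adjusted p = 0.00091). Ccnd3 fell (−0.62 ± 0.15, adjusted p = 0.0046), and Cdk6 was called lower (−0.53 ± 0.19, adjusted p = 0.036). The call of Cdk6 was lost in 7 alternatives, among them the fits without P1 replicate 1 or 3 (adjusted p = 0.058 and 0.2) or P60 replicate 1 or 2 (adjusted p = 0.071 and 0.12). Ccnd1 overlapped between the ages (−0.27 ± 0.16, adjusted p = 0.21), and Rb1 was called lower only without P60 replicate 3 (−0.56, adjusted p = 0.048). Mural markers summed to 157 to 375 CPM in the P1 and 1380 to 1990 CPM in the P60 endothelial sums, and mural cells are high in Ccnd2 at both ages; the part of this in the rise was not tested. Mmrn1, a marker of lymphatic vessels, led 1 of the P60 endothelial clusters together with Ccl21a.

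In mural cells, 2 members rose and 1 fell of 8 tested, whereas 33.2% of all genes changed (17.7% rose and 15.6% fell). The class was 1 cluster at P1 and at P60 joined a smooth muscle cluster led by Myh11 with pericyte clusters led by Rgs5 and Kcnj8. Ccnd1 fell from 106, 104 and 115 CPM to 66.4, 53.3 and 36.9 CPM (−0.98 ± 0.19, adjusted p = 0.0022), whereas Ccnd2, with 611, 538 and 609 CPM and then 506, 562 and 513 CPM, was not called (−0.03, adjusted p = 0.86). Rb1 rose (1.39 ± 0.33, adjusted p = 0.0065). Cdkn1a rose from 21.7, 33.7 and 28.4 CPM to 42, 68.8 and 153 CPM (1.86 ± 0.54, adjusted p = 0.037), a call that was lost without P1 replicate 1, 2 or 3 (adjusted p = 0.11, 0.079 and 0.098). Without P60 replicate 1 the fall of Ccnd3 was called (−0.70, adjusted p = 0.027), without P60 replicate 2 Cdkn1b (0.67, adjusted p = 0.045) and without P60 replicate 3 Cdkn2c (0.59, adjusted p = 0.023). With no filter on low counts the fall of Ccnd3 was also called (−0.56, adjusted p = 0.022).

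Immune cells had 2 rises and 2 falls among 8 members tested, whereas 37.7% of all genes changed (20.2% rose and 17.4% fell). Ccnd1 fell from 150, 145 and 139 CPM to 71.7, 70.8 and 87.3 CPM (−0.85 ± 0.14, adjusted p = 0.00027), and Ccnd2 rose from 79.9, 57.6 and 66.9 CPM to 122, 107 and 105 CPM (0.77 ± 0.15, adjusted p = 0.0016). Rb1 rose (0.87 ± 0.22, adjusted p = 0.0062), and Cdkn1a was called lower (−0.41 ± 0.14, adjusted p = 0.031), but not without P1 replicate 2 or 3 or P60 replicate 2 (adjusted p = 0.13, 0.11 and 0.1). Cdk6 (−0.42 ± 0.16, adjusted p = 0.058) and Ccnd3 (0.18, adjusted p = 0.43) were called without P60 replicate 3 (−0.56, adjusted p = 0.003, and 0.36, adjusted p = 0.022). Cdk6 was also called with library size alone (−0.48, adjusted p = 0.041) and with no filter on low counts (−0.48, adjusted p = 0.026). The immune class was built of different clusters at the ages, led by Cd74 and H2-Aa and by Lyve1 and Pf4 at P1 and by Pf4 and C1q genes and by Lyz1 and Cd52 at P60.

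Because the D-type cyclins can stand in for each other, their mix within a class was also followed, as the share of the summed Ccnd1, Ccnd2 and Ccnd3 UMIs that each one took. The shares were not corrected for how well the RNA of each gene is captured. In SCs, Ccnd1 made up 54.3 ± 0.52% at P1 and 39.7 ± 7.1% at P60, and Ccnd3 19 ± 1.1% and 34.8 ± 8.3%. These sums held fibroblast transcripts, and the shares were not taken in SCs with under 10 Dcn UMIs, where they may differ. Such P1 SCs had 412, 442 and 410 CPM of Ccnd1, 192, 196 and 207 of Ccnd2 and 148, 154 and 130 of Ccnd3. Such P60 SCs had 166, 128 and 118 CPM of Ccnd1, 27.7, 35.6 and 38.5 of Ccnd2 and 154, 107 and 56.7 of Ccnd3. In endothelial cells Ccnd1 went from 42.9 ± 0.49% to 24.3 ± 2.4% and Ccnd2 from 34.2 ± 2.4% to 65.6 ± 2.8%. In immune cells the Ccnd2 share went from 24.2 ± 2.8% to 42.4 ± 0.92%, and in epineurial fibroblasts from 21.4 ± 0.61% to 48.4 ± 5.4%, where that of Ccnd3 went from 61.3 ± 0.8% to 32.8 ± 6.1%. Mural cells had mostly Ccnd2, with 70.9 ± 1.7% and 79.3 ± 5.5%. Of 21 shares compared in 7 classes, 14 did not overlap between the ages, each with the smallest p that the exact permutation test allows (p = 0.1, adjusted p = 0.15), so none could pass a threshold of 0.05.

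**Figure D3:**
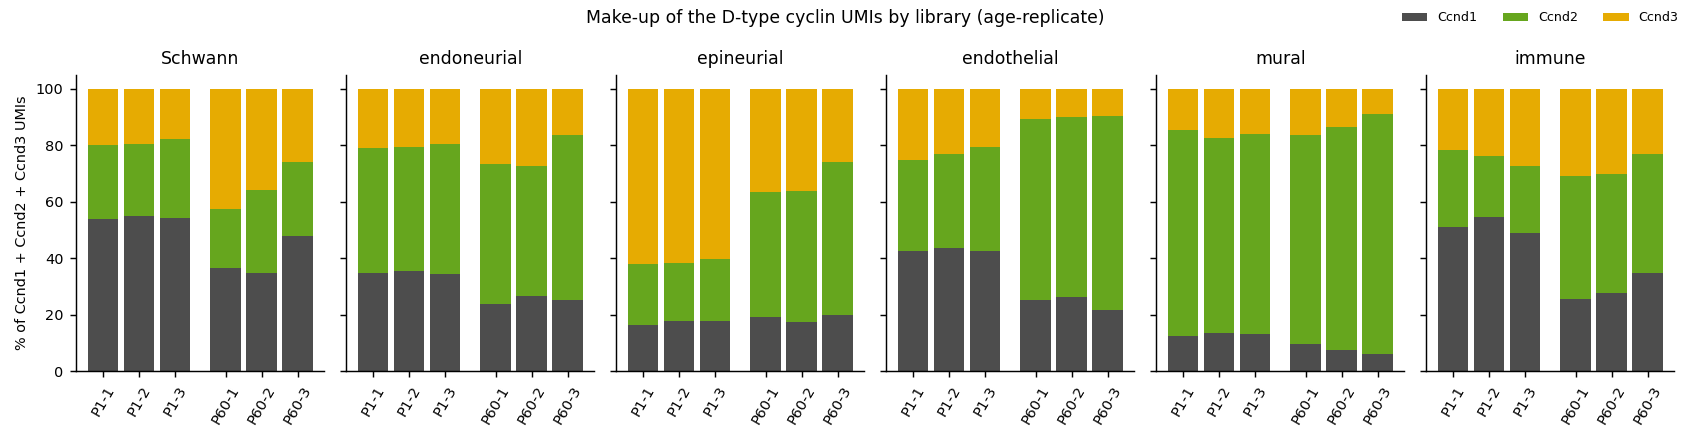
Share of the summed D-type cyclin UMIs (percent) taken by Ccnd1, Ccnd2 and Ccnd3 in each library, named by age and replicate, for 6 cell groups. Ccnd1 takes 54.3% of the mix in P1 Schwann cells and 39.7% in P60 Schwann cells on average, and Ccnd2 goes from 34.2% to 65.6% in endothelial cells. The Schwann cell sums held fibroblast transcripts.

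P1 SCs formed 5 clusters, whose levels are given as a description because the clusters were made from the same counts. The cluster with promyelinating markers (571 cells, of which 0 were cycling) had the highest Cdkn1a, with 1150, 1280 and 1220 CPM. The 2 clusters with markers of SCs that do not myelinate had 149, 148 and 143 CPM (1009 cells, 1.88% cycling) and 144, 170 and 200 CPM (452 cells, 77% cycling). A cluster with no subtype lead had 651, 686 and 735 CPM, and a cluster with a median of 21.8% mitochondrial counts 414, 447 and 407 CPM. Cdkn1b was about level between the promyelinating cluster (326, 265 and 225 CPM) and the cluster with no subtype lead (274, 269 and 266 CPM), and was 176 ± 12.4 CPM in the cluster high in mitochondrial counts. It was lowest in the clusters of SCs that do not myelinate, with 70 ± 8.03 CPM in the one with few cycling cells and 63.6, 72.9 and 58.1 CPM in the cycling one.

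Ccnd1 was lowest in the promyelinating cluster, with 171, 202 and 166 CPM, and highest in the non-cycling cluster of SCs that do not myelinate, with 627, 639 and 626 CPM. Between these lay the cluster with no subtype lead (441, 543 and 477 CPM), the cycling cluster (427, 437 and 413 CPM) and the one high in mitochondrial counts (295 ± 6.13 CPM). The order was not the reverse of that of Cdkn1a, since the cluster with no subtype lead ranked after the highest for both genes. Cdk6 was at 20.4, 21 and 19 CPM in the promyelinating cluster, 46.2 ± 7.83 CPM in the one with no subtype lead, 99.8 ± 12.8 and 127 ± 16.7 CPM in the high-mitochondrial and the non-cycling clusters and 153, 159 and 155 CPM in the cycling cluster. P60 SCs had 131 ± 4.3 CPM of Ccnd1, below every P1 cluster, and 29.8 ± 9.85 CPM of Cdk6 (34.6 ± 9.41 CPM with under 10 Dcn UMIs), between the promyelinating cluster and the one with no subtype lead. Their Cdkn1a (456 ± 61.7 CPM) fell between the P1 clusters. Cdkn2c was at 251, 268 and 301 CPM in the cycling cluster and at most 30.4 CPM in every other.

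**Figure D4:**
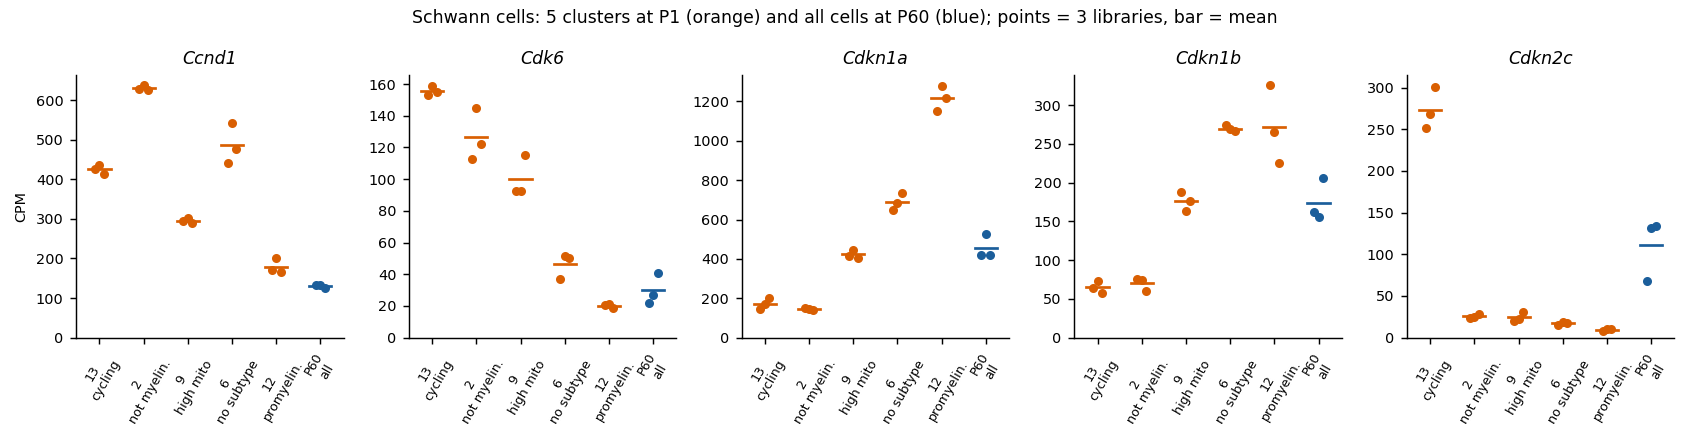
Level of 5 genes (CPM) in the 5 P1 Schwann cell clusters (orange) and in all P60 Schwann cells (blue), with 1 point per library and a bar at the mean. Cdkn1a runs from 144 to 200 CPM in the cycling cluster to 1150 to 1280 CPM in the promyelinating one, Ccnd1 is highest in the non-cycling cluster without myelinating markers, and Cdkn2c stands at 251 to 301 CPM in the cycling cluster.

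P1 SCs were also divided by 1 myelin gene. Ncmap, which encodes a protein of non-compact myelin, split the P1 SCs that were not cycling into 1552 cells without an Ncmap UMI and 1531 cells with one, a choice made after values were seen and given with no test. Cdkn1a was at 169, 190 and 185 CPM without Ncmap and 909, 974 and 958 CPM with it. Cdkn1b was at 112, 115 and 99.9 CPM without it and 289, 257 and 245 CPM with it. Ccnd1 was at 568, 611 and 564 CPM without Ncmap and 283, 338 and 309 CPM with it, and Cdk6 at 112 ± 13.9 and 37.1 ± 5.74 CPM. Thinned to 1500 UMIs, 20.6 ± 1.09% of cells without an Ncmap UMI and 67.1 ± 0.423% of cells with one had a Cdkn1a UMI, at median depths of 4798.5 and 7134 UMIs (43.3% and 92.1% without thinning). Among P1 fibroblasts that were not cycling, the thinned share was 3.73%. Within cells of 4000 to 12000 UMIs the Cdkn1a levels were 168, 190 and 183 CPM and 960, 1010 and 984 CPM.

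Cycling cells were those with at least 2 UMIs of the proliferation genes Mki67 and Top2a together, which were left out of the results. Cells under this cut are called other or not cycling, but were not shown to have left the cycle. They may include dividing cells in the first gap phase or of low depth. Phases were not told apart, and their part in the differences was not tested. At P1 they numbered 139, 168 and 162 SCs in the 3 libraries, against 908, 1106 and 1069 other SCs, and 147, 154 and 151 fibroblasts. At P60 there were 4 such SCs among 440, too few to compare. Cycling cells were deeper than the rest in every class. In fibroblasts the library medians were 11448.5 to 12023 UMIs against 7026.5 to 7710.5, and in SCs 5909 to 6976 against 5385 to 5849. Endothelial cells had 8784 to 9398 against 5280 to 7170, mural cells 6933 to 8299.5 against 4202 to 4874 and immune cells 8911.5 to 11349 against 5690 to 6700.5.

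In cycling against other P1 SCs, 3 of 9 members tested were higher and 4 lower (edgeR with the library as a block), whereas 47% of all genes changed (23.8% higher and 23.2% lower). Cdkn2c was higher in each library, with 18.5, 18.9 and 22.6 CPM in other SCs and 250, 259 and 273 CPM in cycling SCs (3.64 ± 0.10, adjusted p = 6.3e-96). Thinned, 28.5 ± 1.79% of cycling and 3.21 ± 0.361% of other SCs had a Cdkn2c UMI (65.5% and 10.5% without thinning). Cdk6 was also higher, with 63, 73 and 67.7 CPM against 160, 166 and 172 CPM (1.22 ± 0.09, adjusted p = 3.4e-31), as was Cdkn2a at a low level (1.41, 1.4 and 0.891 against 7.79, 3.85 and 9.56 CPM; 2.44 ± 0.48, adjusted p = 4.2e-06). Lower in cycling SCs were Cdkn1a (585, 660 and 649 against 167, 180 and 228 CPM; −1.79 ± 0.06, adjusted p = 4.1e-70) and Cdkn1b (212, 200 and 187 against 76, 80.9 and 53.9 CPM; −1.58 ± 0.09, adjusted p = 4.1e-41). Ccnd2 was lower, with 216, 228 and 232 CPM against 100, 79 and 99.1 CPM (−1.35 ± 0.08, adjusted p = 2e-37), and so was Ccnd3 (−1.14 ± 0.09, adjusted p = 1.6e-25). Ccnd1 had 408, 448 and 411 CPM in other and 418, 416 and 398 CPM in cycling SCs and was not called (−0.11 ± 0.06, adjusted p = 0.11). It was called lower without P1 replicate 1 (−0.16, adjusted p = 0.049). It was also called lower when cycling SCs had to hold a UMI of each of Mki67 and Top2a (−0.17, adjusted p = 0.023).

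The SCs that were not cycling held the Ncmap cells, so the contrast was repeated in cells with 0 Ncmap UMIs. The difference of Cdkn1a was then −0.096 (adjusted p = 0.47), with 169, 190 and 185 CPM against 132, 155 and 211 CPM, and its call was lost. Cdkn1b stayed lower in cycling cells by a smaller difference (−0.78, adjusted p = 9e-06), with 112, 115 and 99.9 CPM against 69.8, 74.4 and 44.1 CPM. Ccnd1 was called lower in cycling cells (−0.46, adjusted p = 1.7e-07), with 568, 611 and 564 CPM against 423, 428 and 390 CPM. Cdkn2c (3.26, adjusted p = 2e-19), Ccnd2 (−1.60, adjusted p = 7.1e-14) and Ccnd3 (−0.98, adjusted p = 9.5e-09) kept their calls, and Cdk6 was higher by less (0.64, adjusted p = 5.6e-06).

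**Figure D5:**
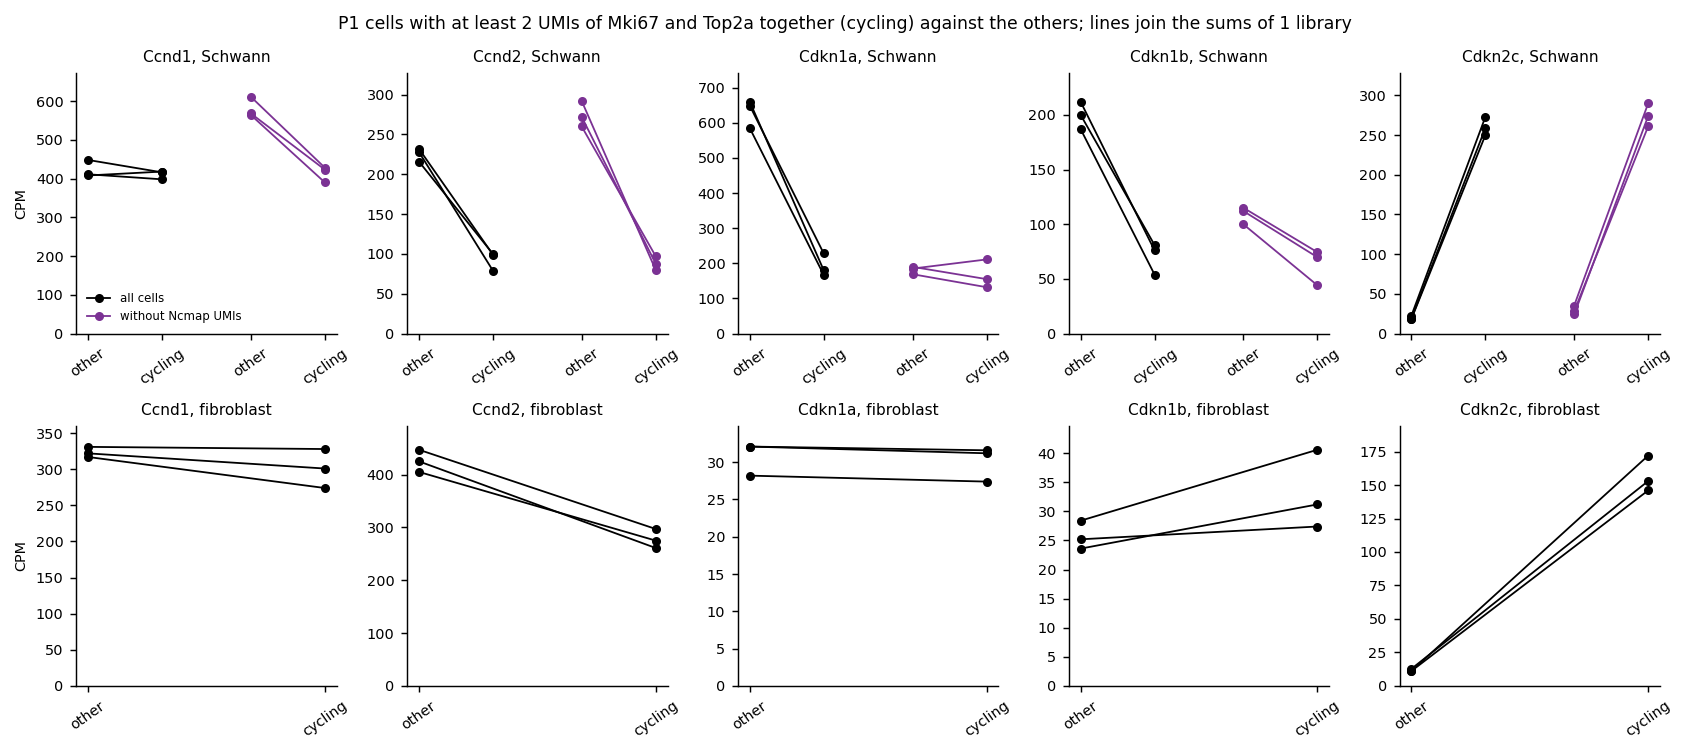
Level of 5 genes (CPM, linear axes from 0) in other and cycling cells of P1 Schwann cells (top) and fibroblasts (bottom), with a line per library; purple lines are Schwann cells with 0 Ncmap UMIs. Cdkn2c is at 18.5 to 22.6 CPM in other and 250 to 273 CPM in cycling Schwann cells, and Cdkn1a is at 169 to 190 CPM in other and 132 to 211 CPM in cycling Schwann cells without Ncmap UMIs.

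In P1 fibroblasts, 3 of 10 members were higher and 3 lower in cycling cells, whereas 37.6% of all genes changed (20.6% higher and 17.1% lower). Cdkn2c was again higher, with 11.1, 11.1 and 12.7 CPM in other cells and 172, 146 and 153 CPM in cycling cells (3.71 ± 0.09, adjusted p = 1.9e-28). Ccnd2 (425, 405 and 447 against 261, 275 and 297 CPM; −0.65 ± 0.05, adjusted p = 4.7e-14) and Ccnd3 (−0.41 ± 0.05, adjusted p = 7.2e-09) were lower. The calls of Ccnd1 (−0.14 ± 0.05, adjusted p = 0.026), Cdkn1b (0.33 ± 0.13, adjusted p = 0.042) and Rb1 (1.04 ± 0.33, adjusted p = 0.012) were each lost under several settings. Without P1 replicate 2 Ccnd1 was not called (adjusted p = 0.28), without replicate 1 or 3 Cdkn1b (adjusted p = 0.35 and 0.15) and without replicate 3 Rb1 (adjusted p = 0.19), and DESeq2 called 3 members in all. Cdkn1a, which was low in fibroblasts, had 32.1, 28.2 and 32.1 CPM in other and 31.6, 27.4 and 31.2 CPM in cycling cells (−0.07, adjusted p = 0.71). Cdkn2b (−0.11, adjusted p = 0.40) and Cdkn2a (0.17, adjusted p = 0.52) were not called either. Among fibroblasts with a UMI of Sox9 or Col2a1, both endoneurial markers, Cdkn2b was lower in cycling cells (−0.65, adjusted p = 1.1e-05), as was Cdk6 (−0.38, adjusted p = 0.0043), and Ccnd2 was lower by more (−1.08, adjusted p = 1.7e-15).

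The vessel and immune classes had 10 to 17 and 52 to 67 cycling cells per library. In endothelial cells Cdkn2c alone was called of the members (4.17 ± 0.51, adjusted p = 5.4e-05), with 0.581, 3.93 and 7.52 CPM in other and 78, 48 and 129 CPM in cycling cells, whereas 5.04% of all genes changed (3.31% higher and 1.73% lower). In mural cells, where 8.75% of all genes changed (6.52% higher and 2.23% lower), Cdkn2c (2.96 ± 0.29, adjusted p = 1.6e-08) and Cdkn1a were called. Cdkn1a was higher in cycling mural cells, with 15.5, 23.5 and 17.5 CPM against 85.3, 97.1 and 120 CPM (2.39 ± 0.37, adjusted p = 2.2e-05). These 42 cycling cells held 35 UMIs of it. The sign was opposite to that in SCs as a whole, whose difference was −0.096 (adjusted p = 0.47) among cells with 0 Ncmap UMIs. In immune cells, where 10.2% of all genes changed (7.09% higher and 3.08% lower), Cdkn2c was higher (4.37 ± 0.22, adjusted p = 1.1e-11) and Ccnd2 lower (−0.79 ± 0.18, adjusted p = 0.0054), a call lost without P1 replicate 1 or 2 (adjusted p = 0.14 and 0.059).

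The rest of the pathway was followed in 8 lists of genes, chosen with earlier results of these data known and described by counts of called genes and medians. Over all genes tested in SCs, 43.7% changed from P1 to P60 (23.4% rose and 20.3% fell). The median of all genes was 0.037 on the log2 scale. In SCs, 18 of 20 genes of DNA replication and mitosis fell and 0 rose, with a median of −2.27. In this list the mitotic checkpoint kinase gene Bub1 had 12.3 ± 0.654 CPM at P1 and 0 UMIs at P60, at least 5.71-fold lower by the floor of 3 counts over the P60 libraries (2.15 CPM). Of the other kinases and cyclins of this phase, 5 of 8 fell and 0 rose (median −0.64), and Ccne1, a cyclin of S phase entry, went from 12.5 ± 1.32 CPM to 0 UMIs, at least 5.8-fold lower. All 3 further inhibitors fell (median −1.54), with Cdkn1c (p57) going from 1840 ± 204 to 278 ± 145 CPM (−2.81 ± 0.34, adjusted p = 0.00022). Of 16 Rb and E2F family genes, 7 fell and 1 rose (median −0.82). The pocket protein gene Rbl2, partner of the repressive E2Fs, rose from 5.6 ± 1.35 to 16.2 ± 7.31 CPM (1.52 ± 0.41, adjusted p = 0.0073), and E2f8 fell (−3.30 ± 0.98, adjusted p = 0.013).

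Lists of regulators outside the core machinery moved less evenly in SCs. Counts near or below the 43.7% of all genes that changed (23.4% rose and 20.3% fell) are no result about a list. Of 13 p53 pathway genes 3 rose and 1 fell (median 0.33), with the antiproliferative gene Btg2 rising from 120 ± 8.57 to 582 ± 235 CPM (2.24 ± 0.23, adjusted p = 3.5e-05) and the cell death gene Bax falling (−0.62 ± 0.14, adjusted p = 0.0017). Of 12 genes of p27 and cyclin D turnover and transcription 1 rose and 3 fell (median −0.33): Foxo1, a transcription factor known to raise Cdkn1b, from 14.4 ± 1.18 to 95.1 ± 24.6 CPM (2.69 ± 0.20, adjusted p = 2.8e-08), while Cks1b, a cofactor of p27 degradation, fell (−1.59 ± 0.22, adjusted p = 3e-05). Of 14 mitogen response genes 4 rose and 3 fell (median −0.12), with Ctgf (Ccn2) rising by 4.37 ± 0.44 (adjusted p = 1e-06) and Mycn falling by 2.63 ± 0.37 on the log2 scale (adjusted p = 2.8e-05). The list of genes that answer to cell dissociation had 7 of 14 higher and 1 lower at P60 (median 0.93), with Junb going from 309 ± 9.97 to 1660 ± 204 CPM (2.38 ± 0.15, adjusted p = 3e-09) and Hsp90aa1 falling with overlap of the ages (−0.42 ± 0.15, adjusted p = 0.032). The part of dissociation in the other differences was not tested.

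In fibroblasts 59.6% of all genes changed with age (31% rose and 28.7% fell, median of all genes 0.036). There 20 of 20 replication and mitosis genes fell (median −4.29), Bub1 by 5.54 ± 0.33 on the log2 scale (adjusted p = 7.6e-07). Of the other lists, the further inhibitors had 0 rises and 2 falls of 3 (median −1.96), with the phosphatase gene Cdkn3 falling (−3.67 ± 0.23, adjusted p = 9.3e-07). The other kinases and cyclins had 0 rises and 7 falls of 8 (−1.44), with Ccne2 falling (−4.16 ± 0.20, adjusted p = 2.1e-07). The Rb and E2F genes had 2 rises and 12 falls of 17 (−0.48), with Rbl2 rising (0.89 ± 0.13, adjusted p = 3e-04) and E2f8 falling (−5.11 ± 0.33, adjusted p = 1.1e-06). Mitogen response genes had 2 rises and 9 falls of 15 (−1.09). Dusp6, which is induced by ERK signalling and dampens it, fell from 208 to 15.9 CPM (−3.70 ± 0.11, adjusted p = 2.7e-08), and Ctgf rose (2.84 ± 0.35, adjusted p = 0.00015).

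The remaining lists in fibroblasts were mixed with age. Counts near or below the 59.6% of all genes that changed are no result about a list. The p53 list had 4 rises and 3 falls of 14 (median 0.05), with Gadd45a higher (1.14 ± 0.12, adjusted p = 2.9e-05) and Btg2 lower (−1.33 ± 0.13, adjusted p = 2.1e-05). The turnover list had 2 rises and 2 falls of 12 (0.09), with Foxo1 higher (1.29 ± 0.11, adjusted p = 8e-06) and Skp2, the ubiquitin ligase subunit that recognises p27, lower (−2.44 ± 0.20, adjusted p = 6.4e-06). The dissociation list had 2 rises and 9 falls of 14 (−0.65), with Hspa1b higher (1.74 ± 0.16, adjusted p = 1.1e-05) and Nr4a1 lower (−2.21 ± 0.39, adjusted p = 0.0021). For the members themselves the medians were −0.36 in SCs and −0.63 in fibroblasts.

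Between cycling and other P1 cells, 20 of 20 replication and mitosis genes were higher in SCs (median 4.27 against −0.012 for all genes) and in fibroblasts (4.28 against −0.008). Over all genes, 47% differed in SCs and 37.6% in fibroblasts. Cycling cells were chosen by the proliferation genes Mki67 and Top2a, so this outcome was largely set by that choice and is no separate result. The same may hold for the other cell cycle genes below. The largest differences in the replication and mitosis list were those of Ube2c, a ubiquitin-conjugating enzyme of mitosis, in SCs (7.0 ± 0.09, adjusted p = 1.5e-161) and the mitotic kinase gene Aurka in fibroblasts (6.09 ± 0.14, adjusted p = 1.1e-29). The Rb and E2F genes had 13 of 17 higher in SCs (0.75) and 15 of 17 in fibroblasts (1.09), with 0 lower, and E2f8 had the largest difference in both (4.47 ± 0.28, adjusted p = 7e-33; 4.99 ± 0.23, adjusted p = 6.5e-20). Of the other kinases and cyclins 5 of 8 were higher in both classes, with 1 lower in SCs (median 0.75) and 2 in fibroblasts (0.71). Among them Ccne2 was higher by 3.47 ± 0.18 in SCs (adjusted p = 6e-46) and 3.44 ± 0.12 in fibroblasts (adjusted p = 3.6e-24), and Mnat1 (−0.38 ± 0.15, adjusted p = 0.035) and Cdk7 (−0.61 ± 0.11, adjusted p = 1.9e-05), subunits of the kinase that activates other cyclin-dependent kinases, were lower in SCs and fibroblasts respectively.

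The further inhibitors had 2 of 3 higher and 1 lower in both classes (medians 2 and 2.34). Over all genes, 47% differed between cycling and other SCs and 37.6% between cycling and other fibroblasts. Cdkn3 was higher in cycling SCs, 96.7 ± 8.42 against 7.25 ± 0.976 CPM (3.66 ± 0.15, adjusted p = 2.8e-61), and in cycling fibroblasts (3.46 ± 0.10, adjusted p = 5.6e-26). Cdkn1c was lower in cycling SCs, 636 ± 76.9 against 2040 ± 239 CPM (−1.74 ± 0.16, adjusted p = 0.0055), and in cycling fibroblasts (−0.42 ± 0.04, adjusted p = 2.2e-10). In the turnover list 3 of 12 were higher and 4 lower in SCs (median −0.03), with Cks1b higher (2.99 ± 0.07, adjusted p = 8.5e-97) and Fbxo31 lower (−1.01 ± 0.21, adjusted p = 2e-05), and 5 higher and 3 lower in fibroblasts (−0.19), with Skp2 higher (1.94 ± 0.12, adjusted p = 2.8e-16) and Foxo1 lower (−0.59 ± 0.17, adjusted p = 0.0059).

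The counts that follow stand beside 47% of all genes that differed in SCs and 37.6% in fibroblasts. Of the p53 genes, 1 of 13 was higher and 4 lower in cycling SCs (median −0.09), with Trp53 higher (0.39 ± 0.10, adjusted p = 0.00039) and Bbc3 lower (−1.58 ± 0.36, adjusted p = 9e-05), and 2 of 14 higher and 5 lower in cycling fibroblasts (−0.14), with Trp53 higher (0.25 ± 0.07, adjusted p = 0.0063) and Trp53inp1 lower (−1.23 ± 0.29, adjusted p = 0.00079). Mitogen response genes had 8 of 13 higher and 2 lower in SCs (0.47), with Etv4 higher (1.14 ± 0.37, adjusted p = 0.0071) and Mycn lower (−0.80 ± 0.15, adjusted p = 1.5e-06), and 5 of 15 higher and 4 lower in fibroblasts (0), with Mycn higher (1.21 ± 0.42, adjusted p = 0.02) and Lef1 lower (−1.05 ± 0.40, adjusted p = 0.038). The dissociation genes had 10 of 14 higher and 2 lower in SCs (0.52), with Ier2 higher (0.97 ± 0.06, adjusted p = 1.2e-35) and Hspa1a lower (−0.55 ± 0.09, adjusted p = 2.4e-08), and 4 higher and 7 lower in fibroblasts (−0.27), with Hsp90aa1 higher (0.94 ± 0.04, adjusted p = 5.3e-20) and Atf3 lower (−0.80 ± 0.09, adjusted p = 2.9e-09).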

How the data were processed

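The authors deposited, for each of 6 libraries (3 at P1 and 3 at P60), a matrix of raw UMI counts per gene and cell barcode, without normalization or pooling. The submitters' processing notes name Cell Ranger 2.0.2 and GRCm38.p5, while the study's methods name a human build; the identifiers are those of mouse genes. Whether the counting used the strand is not given in the sources used here. Barcodes with 500 to 5000 genes were kept, and each age was clustered with Seurat 5.3.0 in R 4.3.3 (total of 10000, 10 principal components, 30 neighbours, resolution 0.5 at P1 and 0.4 at P60, seed 1). Clusters were named from marker lists by thresholds set after the data were seen: at least 3 markers at 2-fold. Names stand for cells like that type. The perineurial, endoneurial and epineurial groups are subtypes of the fibroblast class. At P1, 701 cells of a cluster with high mitochondrial counts stayed unnamed, and at P60 4 clusters (132, 88, 51 and 21 cells) with markers of more than 1 class were called mixed; neither entered a class.

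Counts were summed per library and class, with at least 10 cells per sum. edgeR 4.0.16 (TMM, filterByExpr, robust quasi-likelihood fit and test) compared the ages across all genes, and cycling with other P1 cells with the library as a block. One model over the sums of 5 classes tested whether a difference varied between classes. Fold changes are log2 with their SE, and p-values were adjusted by Benjamini-Hochberg over all genes tested and called under 0.05. Exact permutation tests compared shares of UMIs. Shares of cells with a UMI are the expectation after thinning to 1500 UMIs, leaving out shallower cells, and intervals and floors (3 counts) cover counting error only. DESeq2 1.42.0, other filters and scalings, cell subsets and leaving out each library were alternatives. No doublet calls were used to remove cells; as an alternative the highest Scrublet scores (scanpy 1.11.5, 2.74% to 3.67% of each library) were left out. The steps were tested on simulated data. Coordinates come from the GENCODE M21 annotation of GRCm38 and upstream sequences from RefSeq.

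All 10 members were named whatever their values, and from each list the called gene with the largest rise and fall. The members and lists were chosen with earlier results of these data known, and the division by Ncmap and the cells with a Sox9 or Col2a1 UMI were chosen after values were seen. The replicate number of P60 replicate 3 is not the same in all of the study's material, and the labels' numbers were used.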

Additional observations from a re-analysis of the deposited data

Results flagged for a closer look

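The difference between the ages varied between the 5 classes for 9 of the 10 members by edgeR's test of the class by age terms, against 60% of all genes tested. The adjusted p was 6.9e-15 for Ccnd1, which was called lower at P60 in all classes but endothelial cells, and 6.8e-22 for Ccnd2, which rose in endothelial and immune cells and fell in Schwann cells and fibroblasts. It was 3.8e-13 for Ccnd3 and 4.6e-27 for Cdk6, whose fall was −3.53 in fibroblasts and −1.47 in Schwann cells. Among the inhibitors it was 0.00029 for Cdkn1a, 0.0011 for Cdkn1b, 4e-07 for Cdkn2b and 0.00037 for Cdkn2c, and it was 1e-07 for Rb1. For Cdkn2a the adjusted p was 0.072.

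The difference between cycling and other P1 cells varied between classes for 6 members, against 16.8% of all genes tested. The adjusted p was 1.1e-42 for Cdkn1a, which was lower in cycling Schwann cells and higher in cycling mural cells, and 3.9e-17 for Cdkn1b, lower in cycling Schwann cells. It was 1e-11 for Cdk6, 2.3e-06 for Ccnd3, 0.0018 for Cdkn2a and 0.011 for Cdkn2c, the last of which was higher in cycling cells of every class tested (log2 fold change 2.96 to 4.37). The Schwann cells that were not cycling included the cells with Ncmap UMIs, which are high in Cdkn1a and Cdkn1b, and the class by cycling test was not repeated without them. For Ccnd1, Ccnd2, Cdkn2b and Rb1 the adjusted p was 0.17, 0.18, 0.44 and 0.19.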

How the results depend on the processing

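Over all alternatives, single-gene results kept their direction and side of the threshold in 1139 cases, lost the call in 49, gained one in 23 and changed sign in 40; counts of calls stayed within 1.5 times in 210 cases and moved beyond in 7. The causes of these changes were not tested. Apart from counts of calls, the values below without a unit are log2 fold changes. With under 10 Dcn UMIs the age differences in Schwann cells were 0.054 for Cdkn1a and 0.20 for Cdkn1b. At most 10% mitochondrial counts gave 0.0014 for Rb1 by age in endothelial cells, 0.036 for Rb1 in cycling Schwann cells and −0.09 points for the Ccnd3 share in fibroblasts. Fibroblasts with a Sox9 UMI gave −0.76 for Cdkn2b and −0.46 for Cdkn2c in place of the endoneurial values. For Rb1 in cycling Schwann cells, a UMI of each of Mki67 and Top2a gave 0.015 and 0 Ncmap UMIs gave 0.46. DESeq2 called 3 members in cycling fibroblasts and 1 in cycling immune cells, with −0.036 for Cdk6 there. In cells of 4000 to 12000 UMIs, Cdkn1a was 0.16 in cycling fibroblasts and Ccnd3 −0.033 in cycling mural cells. Fibroblasts with a Sox9 or Col2a1 UMI gave 0.32 for Cdkn1a, −0.40 for Cdkn2a and −0.38 for Cdk6 in cycling cells. Library size alone gave 0.11 for Rb1 in cycling endothelial cells. Cycling at 1 UMI or more gave 2 endothelial calls, Cdkn2c and Cdkn1a (0.92, adjusted p = 0.036). Ccnd2 was not called there (log2 fold change 0.0048, adjusted p = 0.999). The same setting gave −0.091 for Cdkn1b in mural cells. It gave 1 immune call, and Ccnd1 was not called there (0.12, adjusted p = 0.55).

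Shares of cells with a UMI moved with thinning. At 2500 UMIs and without thinning, the shares were 8.36% and 25.9% for Cdkn2a and 30.5% and 68.6% for Cdkn2b in P1 endoneurial cells, and 28.6% and 35.4% for Cdkn2a and 29.2% and 36.8% for Cdkn2b in P60 endoneurial cells. They were 41.7% and 65.5% for Cdkn2c in cycling and 5.08% and 10.5% in other P1 Schwann cells, and 81.3% and 92.1% for Cdkn1a with and 29.1% and 43.3% without Ncmap UMIs.

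Leaving out 1 library at a time gave −0.12 to 0.31 for Cdkn2a by age in fibroblasts, −0.33 to 0.086 for Cdkn1a and −0.56 to 0.15 for Rb1 in endothelial cells, −0.11 to 0.023 for Ccnd2 in mural cells and −0.079 to 0.45 for Cdkn2c in immune cells. Pathway genes called in mural cells ranged from 17 to 41. In cycling against other cells it gave −0.19 to 0.0033 for Rb1 in Schwann cells, and −0.095 to 0.35 for Cdkn2a and −0.033 to 0.16 for Cdk6 in fibroblasts. In endothelial cells the values were −1.23 to 0.047 for Ccnd2, −0.12 to 0.99 for Cdk6 and −0.62 to 0.37 for Rb1. In mural cells they were −0.16 to 0.69 for Ccnd1, −0.38 to 0.13 for Ccnd2, −0.14 to 0.60 for Ccnd3, −0.064 to 0.68 for Cdkn1b and −0.073 to 0.34 for Cdk6. In immune cells 1 to 2 members were called, with −0.0024 to 0.35 for Cdkn1a, −0.15 to 0.28 for Cdk6 and −0.060 to 0.30 for Rb1. The D-type cyclin shares ranged from −3.17 to 1.09 points for Ccnd2 in Schwann cells and from −0.71 to 2.95 points for Ccnd3 in fibroblasts.

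Replicate numbers did not pair the libraries: same-numbered libraries of the ages had correlations of their deviations of 0.012, 0.043 and 0.077 in Schwann cells, −0.022, 0.193 and 0.128 in fibroblasts, 0.001, 0.105 and 0.08 in endoneurial cells and −0.073 to 0.089 in the other classes, so that not every pair was over 0.1. With the replicate block the counts of calls stayed within 1.5 times and 1 member call was lost, Cdkn1a in Schwann cells (−0.37, adjusted p = 0.078); without the library block of the cycling contrast Cdkn1b in fibroblasts was lost (0.34, adjusted p = 0.055). In mural cells library size alone moved the median of all genes from 0.02 to −0.1. Endothelial cells with a UMI of each cycling gene, of 4000 to 12000 UMIs, with at most 10% mitochondrial counts or without the highest Scrublet scores, and mural cells with a UMI of each cycling gene, were not run, as a sum held under 10 cells. Depth limits Cdkn2a and Cdkn2b outside endoneurial and perineurial cells and all members in the 440 P60 Schwann cells.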
